A study of Mus musculus with 72 samples.

Results

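Microglia and oligodendrocytes of the wild-type (WT) mouse brain were compared by their acetylation of histone H3 at lysine 27 (H3K27ac) at sites of open chromatin. Each microglial peak was paired with the nearest oligodendrocyte peak whose centre lay within 200 bp on the same chromosome. Of 91770 microglial peaks, 25861 (28.2%) had such a partner, and 25689 of 82577 oligodendrocyte peaks (31.1%) served as a partner. The other 65909 microglial and 56888 oligodendrocyte peaks had none. The median gap between the centres of a pair was 35 bp. The choice of pairs used positions only, so the H3K27ac levels were free to be tested.

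The 4 groups were WT microglia and WT oligodendrocytes of C57BL/6 mice at 4 and at 8 months of age, with 2 chromatin immunoprecipitation (ChIP) libraries in each, 8 of the 72 samples of the series. DAPI-positive single nuclei were taken as microglia when positive for PU.1 and negative for OLIG2 and NEUN, and as oligodendrocytes when positive for OLIG2 and negative for PU.1 and NEUN. All 8 libraries used the same antibody against H3K27ac. Libraries of SgshKO mice of the same ages and strain, which lack the lysosomal enzyme sulfamidase, served for a second look at the same pairs. The labels do not say whether replicates came from separate animals, so p-values measure only the spread between these samples, which may be technical.

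H3K27ac marks active promoters and enhancers, and the set of enhancers that carry it differs strongly between cell types. In microglia, the macrophages that reside in the brain, much of this set is opened by PU.1 (gene Spi1), with partners such as IRF8, RUNX1 and SALL1. In oligodendrocytes, which wrap axons in myelin, OLIG2, SOX10, NKX6-2 and MYRF drive the genes for myelin proteins and lipids. OLIG2 is also present in oligodendrocyte precursors, so the OLIG2 gate can hold both stages.

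The microglial libraries held 12000879 to 15778229 tags and the oligodendrocyte libraries 26849318 to 31173218, so cell type, sort and depth differed together and cannot be told apart. Between 41.2% and 51.3% of the tags of a microglial library, and between 43.2% and 58.6% of those of an oligodendrocyte library, fell in the 800 bp windows at that cell type's own peaks. Across the 23796 tested pairs, Spearman correlations of the levels were 0.932 to 0.963 between microglial libraries, 0.897 to 0.952 between oligodendrocyte libraries and 0.396 to 0.445 between a library of each kind. Pairs are not independent replicates, and these values describe closeness only. Levels below are normalised tags, that is tags in an 800 bp window scaled to 10000000 tags per library and then by TMM, given as mean ± SD over the 4 WT libraries of a cell type. Each cell type was measured only at its own peaks, so a peak without a partner has no value in the other cell type.

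The bases just upstream of 8 gene starts are shown because these starts held the peaks that set the cell types apart. The starts of P2ry12, Cx3cr1 and Trem2 had a peak only in microglia. Those of Nkx6-2, Mag and Mobp had one only in oligodendrocytes, while Sall1 and Olig2 had one in both and differed in H3K27ac. Each run is 150 bases, 5′ to 3′ on the strand of the gene, ending at the base before the start. Sequences and positions are those of RefSeq on GRCm38.p6 (mm10), and all 8 runs lie inside the peaks described below.
P2ry12, chr3:59262986-59263135, minus strand: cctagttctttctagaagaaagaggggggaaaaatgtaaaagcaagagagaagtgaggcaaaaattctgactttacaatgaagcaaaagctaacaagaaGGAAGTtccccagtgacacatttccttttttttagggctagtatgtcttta
Cx3cr1, chr9:120068297-120068446, minus strand: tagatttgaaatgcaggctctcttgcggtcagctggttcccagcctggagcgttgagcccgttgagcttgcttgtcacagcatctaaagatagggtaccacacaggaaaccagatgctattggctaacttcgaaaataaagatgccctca
Trem2, chr17:48346251-48346400, plus strand: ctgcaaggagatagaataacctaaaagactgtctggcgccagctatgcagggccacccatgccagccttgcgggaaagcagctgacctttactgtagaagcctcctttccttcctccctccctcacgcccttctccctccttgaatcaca
Sall1, chr8:89044163-89044312, minus strand: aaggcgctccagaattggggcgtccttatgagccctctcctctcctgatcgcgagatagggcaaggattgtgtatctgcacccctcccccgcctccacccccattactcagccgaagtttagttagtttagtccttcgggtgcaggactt
Olig2, chr16:91225400-91225549, plus strand: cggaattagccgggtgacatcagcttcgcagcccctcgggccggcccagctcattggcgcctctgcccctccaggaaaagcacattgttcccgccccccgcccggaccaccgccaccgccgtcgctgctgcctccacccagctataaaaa
Nkx6-2, chr7:139582798-139582947, minus strand: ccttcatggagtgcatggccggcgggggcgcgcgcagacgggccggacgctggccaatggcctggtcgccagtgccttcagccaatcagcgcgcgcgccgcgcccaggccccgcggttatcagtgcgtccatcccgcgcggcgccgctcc
Mag, chr7:30914923-30915072, minus strand: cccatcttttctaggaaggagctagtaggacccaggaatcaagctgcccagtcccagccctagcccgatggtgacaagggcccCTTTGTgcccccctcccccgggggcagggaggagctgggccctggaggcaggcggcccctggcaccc
Mobp, chr9:120149592-120149741, plus strand: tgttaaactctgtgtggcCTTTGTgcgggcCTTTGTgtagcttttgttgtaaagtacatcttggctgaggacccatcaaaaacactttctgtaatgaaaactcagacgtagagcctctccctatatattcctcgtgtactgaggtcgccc

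Capitals mark matches to 2 motifs searched on both strands, GGAAGT, the core bound by ETS factors such as PU.1, and ACAAAG, the core bound by SOX factors, whose reverse complement reads CTTTGT. With the base before the start as -1, P2ry12 held GGAAGT at -51 to -46. Mag held ACAAAG on the other strand at -67 to -62, and Mobp held it there at -120 to -115 and at -132 to -127. The other 5 runs held neither set of letters in this window. Among 32851 mouse promoter entries of RefSeq, 13.6% held GGAAGT and 9.88% held ACAAAG in the same 150 bases, so a match describes the letters and is not a binding site. The runs differed widely in base composition, from 37.3% G or C and 0 CpG in P2ry12 to 75.3% and 23 CpG in Nkx6-2. Shares of motifs over whole classes of genes are void and not given, because only 74.96% of the 14634 genes with a peak at the start matched a RefSeq promoter entry and 80% was required.

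Most starts of the defining genes went with the sort labels, though not the upstream annotated start of Mbp, given below. Nuclei were sorted on PU.1 and OLIG2, so Spi1 and Olig2 are not separate checks of the sort. Spi1, which encodes PU.1, had a start peak only in microglia, with 397, 398, 406 and 375 tags in the 4 libraries (394 ± 13.5, SD, n = 4). The start of Csf1r, the receptor for the growth factors on which microglia depend, held 329 ± 12.1, and that of the fractalkine receptor gene Cx3cr1 held 321 ± 7.38 (SD, n = 4). P2ry12, the purinergic receptor of resting microglia, held 373 ± 41.3. No oligodendrocyte peak lay within 1 kb of any of these 4 starts.
Trem2, C1qa and Tmem119 also had a start peak in microglia only. Trem2, a lipid receptor, held 313 ± 47.1 at its start in microglia, C1qa, a chain of complement C1q, held 283 ± 21.6, and Tmem119, a microglial surface protein, held 101 ± 12.4 (SD, n = 4).
In oligodendrocytes, 3 start peaks without a microglial counterpart are given. Mag, an adhesion protein of myelin, held 434 and 474 tags at 4 months and 760 and 727 at 8 months. Mobp, a small basic myelin protein, held 496 ± 52.3, and Sox10 held 214 ± 51.0 (SD, n = 4).
At Mag and Sox10 both 4-month libraries lay below both 8-month libraries, and at Mobp they overlapped. The 8-month oligodendrocyte libraries also had more of their tags in peak windows, 55.6% and 58.6%, against 44.5% and 43.2% at 4 months. Age and this share cannot be told apart here. Differences between ages within a cell type were not tested.

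**Figure D1:**
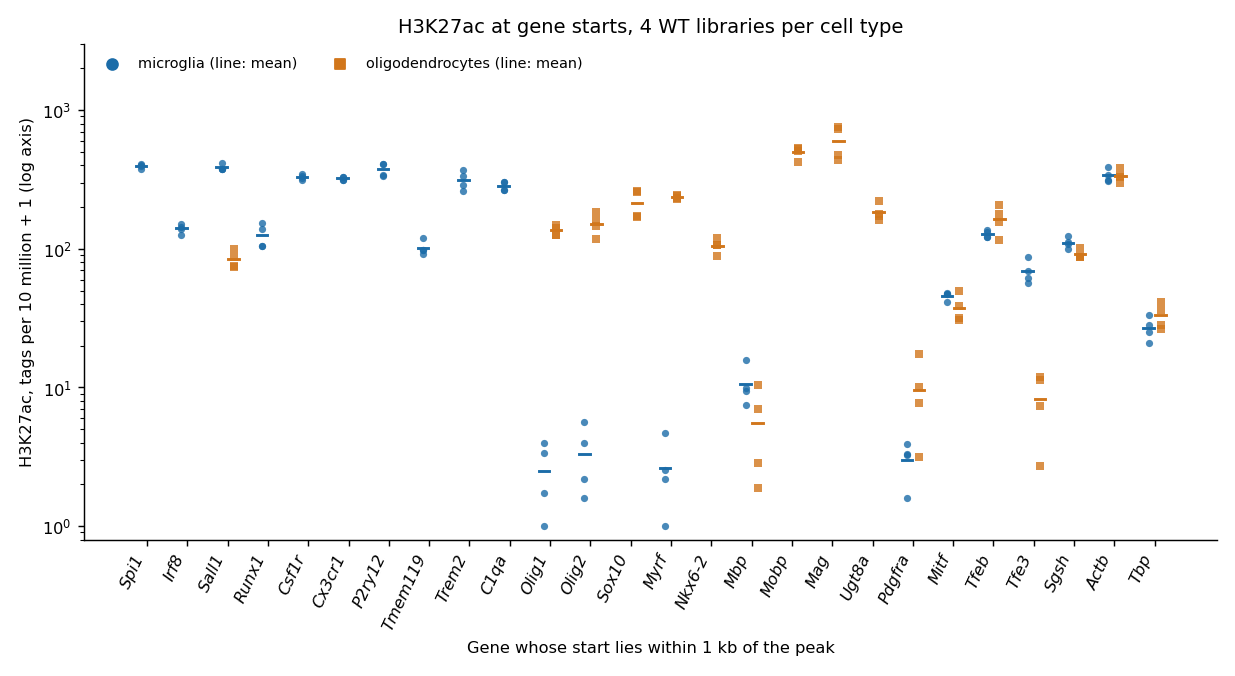
H3K27ac at the peak nearest the start of chosen genes, at most 1 kb away, in normalised tags plus 1 on a log axis; points are the 4 WT libraries of microglia (circles) and of oligodendrocytes (squares) and the short line is their mean. Genes with points of 1 kind had a start peak in that cell type only, and Actb, at 337 in both, lies level.

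At the paired start peaks of Olig2, Olig1, Myrf and Sall1, the cell types differed by large factors. This did not hold for every such gene. The pair at the upstream annotated start of Mbp was not called (log2 difference 1.20, limma FDR 0.091). The paired start of Tcf7l2 was higher in microglia (0.98, limma FDR 0.0021). At the Olig2 start (chr16:91225116-91225916, mm10, promoter), microglia held 4.62, 1.17, 0.584 and 2.98 tags and oligodendrocytes held 145, 116, 182 and 160. The log2 difference of microglia minus oligodendrocytes was -5.66 (SE 0.38, limma false discovery rate, FDR, 3.0e-09). Olig1, its neighbour and partner factor, differed by -5.95 (SE 0.42, limma FDR 5.0e-09) and Myrf, the factor that switches on myelin genes, by -6.70 (SE 0.36, limma FDR 2.1e-10).
The libraries of the cell types were far apart at all 3 starts. In microglia the means there were 2.34, 1.51 and 1.61 tags, beside 1.19, 1.19 and 4.47 in the microglial inputs, which are libraries made without the antibody.
Sall1, a zinc finger factor that is specific to microglia among brain cells, went the other way and was still acetylated in oligodendrocytes. Its start held 377, 413, 375 and 377 tags in microglia and 86.1, 98.0, 73.7 and 73.4 in oligodendrocytes, a log2 difference of 2.21 (SE 0.11, limma FDR 8.6e-11). The libraries of the cell types did not overlap there.
All fold differences here are on the scale of log2(normalised tags + 1), which understates changes at low levels.

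At most open sites that the cell types shared, H3K27ac differed between them. Of 25861 pairs, 23796 had enough tags to be tested. H3K27ac was higher in microglia at 6981 pairs (29.3%) and higher in oligodendrocytes at 7747 (32.6%) at a limma FDR below 0.05. A difference of at least 4-fold was found at 2725 pairs (11.5%) in microglia and at 3960 (16.6%) in oligodendrocytes. All 4 microglial libraries lay above all 4 oligodendrocyte libraries at 6222 pairs (26.1%), and all 4 lay below at 6947 (29.2%). Tested against a 2-fold difference in place of none, 3168 pairs were higher in microglia and 4114 in oligodendrocytes. The order of the counts depended on scaling. With library totals alone 7877 pairs were higher in microglia and 6876 in oligodendrocytes, and with quantile normalization 7805 and 6932.
Many of these pairs were close to silent in the lower cell type. In 77.4% of the pairs at least 4-fold higher in oligodendrocytes the microglial mean was under 10 tags, and in 59.9% of those at least 4-fold higher in microglia the oligodendrocyte mean was under 10.

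**Figure D2:**
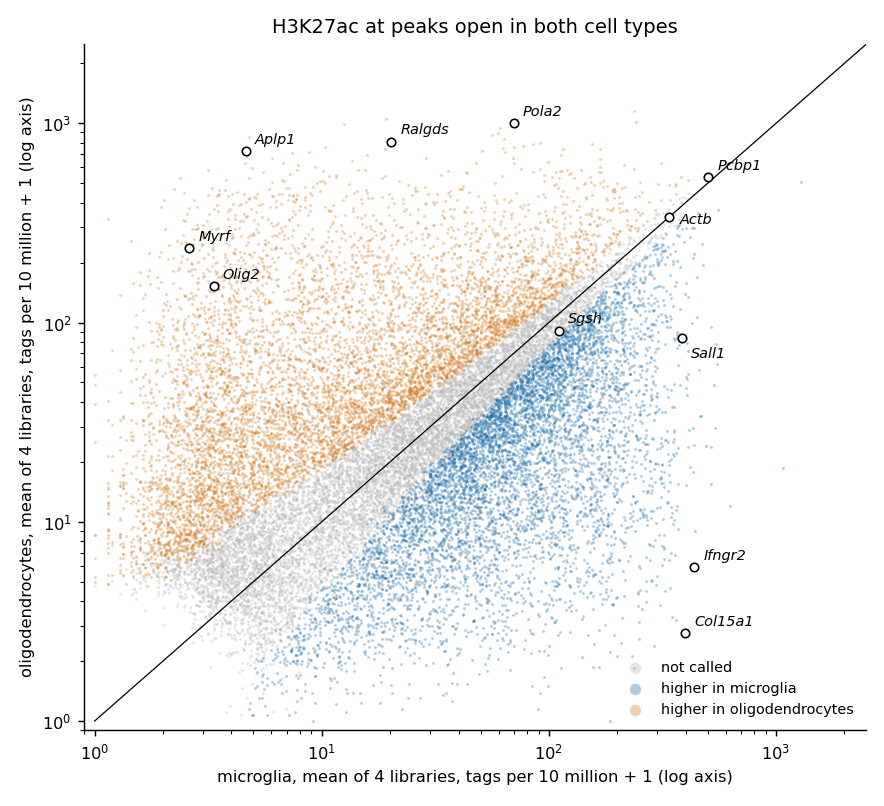
Mean H3K27ac of the 4 microglial libraries against that of the 4 oligodendrocyte libraries at each of the 23796 tested pairs, in normalised tags plus 1 on log axes, with the line of equal level. Blue points were called higher in microglia (6981), orange points higher in oligodendrocytes (7747) and grey points were not called; circled pairs carry the name of the nearest gene.

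Distance from a gene start went with how alike the cell types were. Of paired microglial peaks, 54.1% lay within 1 kb of a start, against 14.9% of unpaired ones, and in oligodendrocytes the shares were 54.0% and 11.0%. Among 13655 tested pairs within 1 kb of a start, 31.8% were higher in microglia and 27.4% in oligodendrocytes, and the Spearman correlation of the mean levels of the cell types was 0.474. Among 5136 pairs between 10 and 100 kb from a start, 24.9% were higher in microglia and 41.4% in oligodendrocytes, with a correlation of 0.321.
The side to which the calls leaned thus differed with distance: microglia had the larger share at starts and oligodendrocytes the larger share away from them. At distances of 10 to 100 kb, a difference of at least 4-fold was found at 13.5% of pairs in microglia and 26.2% in oligodendrocytes, against 9.43% and 10.6% within 1 kb. No test of these shares was made, since pairs of 1 library set are not replicates.
Pairs also tended to be open in neurons. A neuronal peak lay within 200 bp of 76.6% of paired microglial peaks and of 13.3% of unpaired ones, and the shares in oligodendrocytes were 77.2% and 22.2%.

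The pairs with the smallest p in each direction were strong in 1 cell type and many times lower in the other. The start of Ifngr2, a chain of the interferon gamma receptor (chr16:91546692-91547492), held 372, 434, 484 and 454 tags in microglia and 4.94, 4.32, 5.71 and 4.72 in oligodendrocytes. The log2 difference was 6.204 (SE 0.20, limma FDR 2.3e-12), and the oligodendrocyte inputs at the same window held a mean of 3.63. In the fifth intron of Col15a1, a collagen gene (chr4:47250824-47251624), microglia held 396 ± 18.1 and oligodendrocytes 1.77 ± 0.492 (SD, n = 4), where the oligodendrocyte inputs held 14.7.
The libraries did not overlap at either pair. A further 6 microglial pairs chosen in the same way differed by log2 values of 3.45 to 6.10 and were nearest to Zfp36, which encodes an RNA-binding protein that limits cytokine messages, and to Sfmbt1, Gm45915, Gm9054, Poc1a and Pisd-ps3. The Pisd-ps3 pair lies on an unplaced sequence where the microglial inputs held 79.5 tags and the oligodendrocyte inputs 38.0. The input medians over paired peaks were 4.32 and 1.98, and the microglial ChIP level at this pair was 1071.
Of the 8 oligodendrocyte pairs, that at the start of Aplp1, a relative of the amyloid precursor protein (chr7:30445222-30446022), differed most in log2 value. Microglia held 4.62, 3.52, 4.14 and 2.24 tags there and oligodendrocytes 719, 767, 602 and 801, a log2 difference of -7.31 (SE 0.21, limma FDR 1.4e-12). In the first intron of Ralgds, an activator of Ral GTPases (chr2:28525396-28526196), the levels were 19.3 ± 4.33 and 808 ± 59.3 (SD, n = 4). In an intron of Pola2, a subunit of DNA polymerase alpha (chr19:5945830-5946630), oligodendrocytes reached 1001 ± 39.1 and microglia 69.1 ± 12.3.
At all 3 the microglial libraries lay below all oligodendrocyte libraries. The remaining pairs were nearest to Rffl, Arhgef2, Il12rb1, Kif21b and A230009B12Rik, with log2 differences between -5.30 and -3.33. Il12rb1 is a cytokine receptor gene, but its pair was intergenic and the name is only that of the nearest gene.

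The 14 microglial transcription factors on a chosen list were open at their starts in microglia without exception. Of these, 8 had no start peak in oligodendrocytes (Spi1, Irf8, Irf5, Maf, Runx1, Ikzf1, Mef2c, Fli1), and 6 had one in both. All genes, here and below, are the 19102 that were nearest to a peak of either cell type. Of these, 13.96% had a start peak in microglia only, 7.88% in oligodendrocytes only, 54.8% in both and 23.4% in neither. Of 26 tested pairs nearest to the 14 factors, 23 (88.5%) were higher in microglia and 0 in oligodendrocytes. Their median log2 difference was 2.96, and the values over all pairs were 29.3%, 32.6% and -0.07. Cebpa and Cebpb, factors of myeloid differentiation, had start levels of 193 ± 9.07 against 8.01 ± 4.43 and 132 ± 15.4 against 4.24 ± 1.88 (SD, n = 4). Mef2a, a factor used by many tissues, differed less, at 432 ± 25.4 against 219 ± 26.4.
Most peaks around the 14 factors had no partner at all. Of 530 microglial peaks nearest to the 14 genes, 502 (94.7%) were unpaired, against 71.8% of all microglial peaks. Oligodendrocytes had 72 peaks nearest to them, of which 44 (61.1%) were unpaired, against 68.9% of all oligodendrocyte peaks. Sall1 had 50 unpaired peaks in microglia, up to 483 tags, and 23 in oligodendrocytes, up to 411.

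Of 22 genes for microglial receptors and surface proteins, 16 had a start peak in microglia only, 4 in both and 2 in neither cell type, beside 13.96% of all genes in microglia only. Of 12 tested pairs, 10 were higher in microglia and 1 in oligodendrocytes, beside 29.3% and 32.6% of all pairs. At the start of Tgfbr1, a receptor for TGF-beta, the signal that maintains microglial identity, the levels were 182 ± 7.08 and 21.7 ± 4.43 (SD, n = 4), a log2 difference of 3.03. The exception was a pair near Selplg, an adhesion ligand of leukocytes, with 1.93 tags in microglia and 28.2 in oligodendrocytes, although the Selplg start was open only in microglia, at 382 ± 37.4.
Of 17 genes for complement, Fc receptors and phagocytosis, 14 were open at the start only in microglia, beside 13.96% of all genes. Of 10 tested pairs, 7 were higher in microglia and 1 in oligodendrocytes, beside 29.3% and 32.6% of all pairs. Mertk, a receptor for the uptake of dying cells, held 194 ± 32.6 in microglia and 17.4 ± 9.11 in oligodendrocytes. The pair higher in oligodendrocytes lay near Laptm5, with 0.925 against 15.1 tags.

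Oligodendrocyte transcription factors leaned the other way. Of 11 genes, 6 (Sox10, Nkx2-2, Nkx6-2, St18, Zfp488, Zfp536) had a start peak only in oligodendrocytes, beside 7.88% of all genes, and none only in microglia. Of 18 tested pairs, 13 (72.2%) were higher in oligodendrocytes and 4 in microglia, beside 32.6% and 29.3% of all pairs, with a median log2 difference of -3.83. St18, a zinc finger factor, had the highest start level of the list, 593 ± 80.01 (SD, n = 4).
Tcf7l2, a Wnt effector that is needed for oligodendrocyte maturation, ran against the list. Of its 4 tested pairs, 3 were higher in microglia. In a pair 1.25 kb from the annotated start (chr19:55742655-55743455), microglia held 167, 208, 179 and 157 tags and oligodendrocytes 30.9, 7.77, 9.72 and 16.2. The log2 difference there was 3.56 (SE 0.32, limma FDR 8.1e-08), and the only pair higher in oligodendrocytes held 8.94 tags there and 1.89 in microglia.
A single Myrf pair was likewise higher in microglia, at 16.4 against 4.68 tags, while the Myrf start was not.

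Most pairs near genes for myelin proteins were higher in oligodendrocytes, with large exceptions. Of 28 genes, 13 had a start peak only in oligodendrocytes, 14 in both and none only in microglia, beside 7.88%, 54.8% and 13.96% of all genes. Of 58 tested pairs, 41 (70.7%) were higher in oligodendrocytes and 6 in microglia, beside 32.6% and 29.3% of all pairs. The 6 lay near Enpp6, Ninj2, Opalin and Mbp. The Enpp6 pair held 230.8 tags in microglia and 1.11 in oligodendrocytes (log2 difference 7.01), the stronger of 2 Ninj2 pairs held 296.6 and 35.01 (3.06), and the Opalin pair held 23.04 and 5.64 (2.08). Pllp, a membrane protein of myelin, had 0.738 ± 1.12 tags at its start in microglia and 222 ± 29.8 in oligodendrocytes (SD, n = 4), and Mal, a proteolipid of myelin membranes, had 1.21 ± 1.498 and 156 ± 16.5.
The starts of Cnp and Trf were acetylated in both cell types. At Cnp, an enzyme of non-compact myelin, microglia held 192 ± 26.2 and oligodendrocytes 420 ± 28.1, a log2 difference of -1.13 (SE 0.10, limma FDR 7.6e-08). Trf, transferrin, held 183 ± 12.9 and 267 ± 65.9, with libraries that overlapped. The Mog start, which was open in both with peaks that were not paired, held 80.2 ± 8.90 and 594 ± 84.3 in different windows, so it was not tested.
Around Mbp, myelin basic protein, the tested start peak was not called. The paired peak at its upstream annotated start held 8.47, 6.46, 14.75 and 8.94 tags in microglia and 0.892, 9.501, 1.85 and 5.94 in oligodendrocytes, with overlapping libraries (log2 difference 1.20, SE 0.59, limma FDR 0.091). Of 13 tested Mbp pairs, 3 were higher in oligodendrocytes, all between 16.2 and 25.1 kb upstream of the annotated start nearest to them, and the strongest held 569 ± 30.2 against 169 ± 8.37. Another 2 were higher in microglia, and a further 108 Mbp peaks were found only in oligodendrocytes, up to 816 tags. All called Mbp pairs were nearest to another annotated start, further downstream. That start was not read separately.

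The lipid genes of myelin mostly had open starts in both cell types, with more H3K27ac in oligodendrocytes. Of 22 genes of myelin lipid and cholesterol synthesis, 18 were open at the start in both cell types, beside 54.8% of all genes. Of 49 tested pairs, 45 (91.8%) were higher in oligodendrocytes and 0 in microglia, beside 32.6% and 29.3% of all pairs, with a median log2 difference of -2.12. Fasn, fatty acid synthase, held 45.1 ± 11.2 in microglia and 315 ± 41.7 in oligodendrocytes, and Fa2h, which makes the hydroxylated fatty acids of myelin, held 0.589 ± 0.834 and 178 ± 8.52 (SD, n = 4). Among cholesterol genes, Idi1 held 29.6 ± 4.001 and 107 ± 13.97, and Sqle held 4.62 ± 3.299 and 36.6 ± 7.75.

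**Figure D3:**
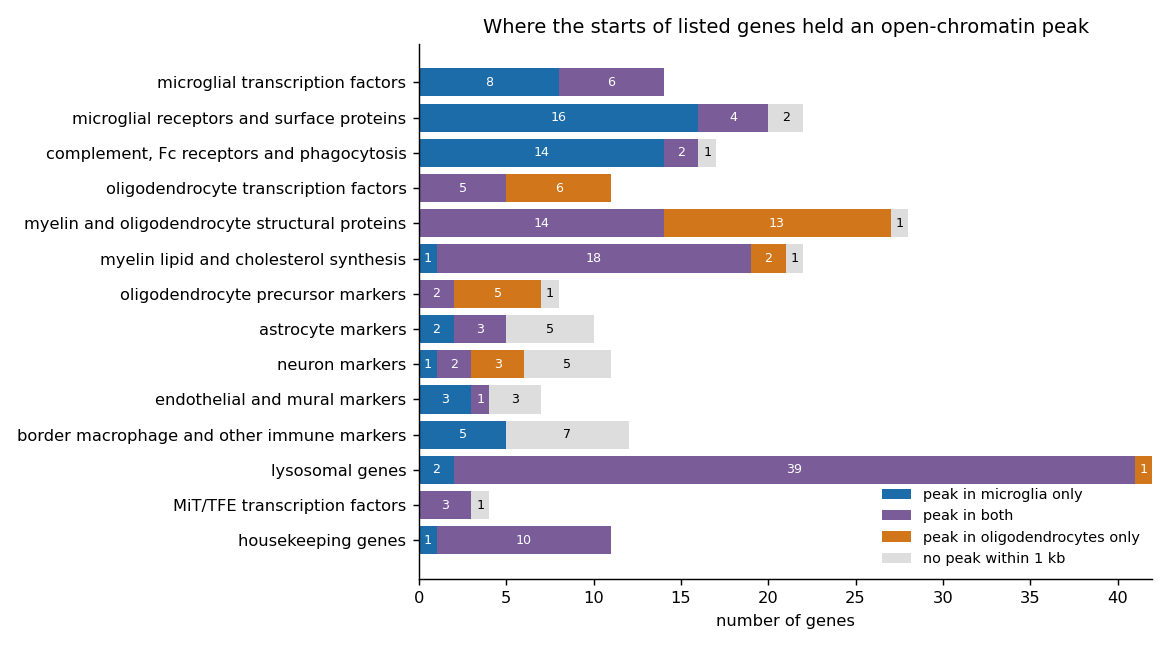
Number of genes on each list whose start had a peak within 1 kb in microglia only, in both cell types, in oligodendrocytes only, or in neither. Receptor and complement genes are mostly open in microglia only (16 of 22 and 14 of 17), while 18 of 22 lipid genes and 39 of 42 lysosomal genes are open in both.

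Genes of other cell types that the gates could hold were read in the same way. The 7 start peaks of oligodendrocyte precursor markers in oligodendrocytes summed to between 216 and 312 tags per library, of which Gpr17, a receptor of committed precursors, gave 161 ± 37.8 (SD, n = 4). Pdgfra, the defining precursor receptor, held 8.57 ± 5.93, and Cspg4 held 13.5 ± 4.90. All 7 tested pairs near precursor genes were higher in oligodendrocytes, beside 32.6% of all pairs.
Astrocyte markers summed to between 142 and 159 tags at 3 starts in oligodendrocytes, of which Slc1a3 gave 98.1 ± 11.6, and to between 40.8 and 55.2 at 5 starts in microglia. Aqp4, Gfap, Gja1 and Gjb6 had no start peak in either cell type. Neuron markers summed to at most 46.5 in oligodendrocytes and 24.7 in microglia.
Microglia carried 96.8 to 122 tags over 4 endothelial starts, of which Pecam1, which myeloid cells also express, gave 78.0 ± 5.08, and 54.3 to 79.8 over 5 starts of border macrophage and other immune genes, of which Mrc1 gave 37.3 ± 7.12. No peak near the latter list was found in oligodendrocytes. Their part in the differences above was not tested.

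Lysosomal genes were open almost throughout and leaned towards microglia. Of 42 genes, 39 had paired start peaks, beside 46.6% of all genes. Of 83 tested pairs, 41 (49.4%) were higher in microglia and 13 (15.7%) in oligodendrocytes, beside 29.3% and 32.6% of all pairs, with a median log2 difference of 0.63. Ctsz, a cathepsin, held 342 ± 20.6 in microglia and 3.64 ± 2.31 in oligodendrocytes (SD, n = 4), and Ctsd, the aspartic cathepsin, held 191 ± 14.3 and 27.3 ± 8.97. Grn, progranulin, held 144 ± 21.2 and 19.6 ± 10.9.
A few ran the other way. Smpd1, acid sphingomyelinase, held 21.97 ± 3.995 in microglia and 68.3 ± 9.04 in oligodendrocytes (log2 difference -1.60, limma FDR 1.1e-05), and Lipa, the acid lipase, held 32.6 ± 3.86 and 73.6 ± 10.7 (log2 difference -1.15, limma FDR 0.000115).
Sgsh, the gene deleted in the SgshKO mice, was not called in WT. Its start held 107, 123, 111 and 98.5 tags in microglia and 86.1, 101, 87.4 and 86.0 in oligodendrocytes, with overlapping libraries (log2 difference 0.28, SE 0.14, limma FDR 0.10). Scaled by library totals alone, the Sgsh difference was 0.46 and passed (limma FDR 0.023).

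MITF, TFEB and TFE3 are related factors that switch on lysosomal genes, and the study immunoprecipitated all 3. At the Mitf start the levels were 44.9 ± 3.08 in microglia and 36.6 ± 8.53 in oligodendrocytes (SD, n = 4; log2 difference 0.31, limma FDR 0.26). The Tfe3 start peaks of the cell types were not paired with each other and held 67.8 ± 13.5 and 7.32 ± 4.22 in different windows, and Tfec had no start peak.
The pairs near Tfeb differed in both directions, a pattern picked after its values were seen. Of 20 tested Tfeb pairs, 5 were higher in microglia and 10 in oligodendrocytes, beside 29.3% and 32.6% of all pairs. The other 5 were not called, and log2 differences ran from -4.69 to 3.42. At chr17:47768415-47769215, microglia held 393, 431, 381 and 428 tags and oligodendrocytes 74.0, 80.3, 59.9 and 70.3 (log2 difference 2.51, SE 0.12, limma FDR 4.4e-11). At chr17:47762801-47763601, microglia held 44.7, 36.4, 34.2 and 23.9 and oligodendrocytes 573, 549, 572 and 610 (log2 difference -4.04, SE 0.14, limma FDR 3.5e-12).
Neighbouring sites of 1 gene thus stood in opposite order, with no overlap between libraries at either. The Tfeb start held 127 ± 8.501 and 163 ± 38.1. Its call (log2 difference -0.33, limma FDR 0.040) was lost when library totals alone were used (-0.15, limma FDR 0.39).
The factor tables, in which the authors merged replicates, give 1 value per factor and cell type, with no replicate error. In microglia, TFE3 tags were at least 2-fold over input at 63.1% of the pairs with higher H3K27ac in microglia, at 42.0% of those with higher H3K27ac in oligodendrocytes and at 49.3% of pairs not called. In oligodendrocytes the TFE3 shares were 58.1%, 66.4% and 58.9% in the same order. For TFEB they were 38.1%, 28.9% and 29.8% in microglia and 64.4%, 71.9% and 65.5% in oligodendrocytes. For MITF they were 36.3%, 26.2% and 26.9% in microglia and 37.7%, 45.5% and 37.3% in oligodendrocytes.

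Some strong starts had nearly the same mean in both cell types. The 5 strongest start pairs with a log2 difference under 0.25 in size were nearest to Flcn, Pcbp1, Zeb2, 5031425E22Rik and Atp6v0c, at 398 to 503 tags in microglia. Flcn, folliculin, which controls the entry of TFE3 into the nucleus, held 505, 466, 513 and 528 tags in microglia and 488, 490, 461 and 613 in oligodendrocytes (log2 difference -0.02, SE 0.08, limma FDR 0.84). Zeb2, a repressor required in both lineages, held 444 ± 36.0 and 422 ± 14.1 (SD, n = 4), and Atp6v0c, a subunit of the lysosomal proton pump, held 398 ± 37.4 and 423 ± 28.7.
Under quantile normalization, however, all 5 were called higher in microglia, by log2 values of 0.39 to 0.59, so their level order depends on the scaling.
Of 45 tested pairs of housekeeping genes, 11 (24.4%) were higher in microglia and 11 in oligodendrocytes, near the 29.3% and 32.6% of all pairs. Actb held 337 ± 36.8 and 337 ± 34.98. With library totals alone the counts were 15 and 10.

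Peaks without a partner were numerous around genes of each lineage. Of 17542 genes with at least 1 unpaired peak, 6171 had such peaks only in microglia, 3490 only in oligodendrocytes and 7881 in both, while 385 genes had 10 or more in microglia and none in oligodendrocytes, and 337 the reverse. Runx1, a myeloid factor, led in microglia with 91 unpaired peaks against 3, followed by Sipa1l2 with 88 against 25, Frmd4a with 76 against 20 and Pag1, an adaptor of Src family kinases, with 75 against 5. Elmo1, an engulfment adaptor, had 73, Rreb1 and Zfhx3, zinc finger factors, had 72 each, and Pmepa1, which limits TGF-beta signalling, had 68.
In oligodendrocytes the non-coding gene A230009B12Rik led with 129 against 12, and its unpaired peaks were also high, with a median of 254 tags and a maximum of 1082. Gse1 had 124, A330074K22Rik 122, Rnf220, a ubiquitin ligase, 115, 4833428L15Rik 112, Mbp 108, Kazn 103 and Fam53b 99. At Gse1 the median was 10.4 tags.
These counts follow the nearest-gene assignment of the files. Requiring a mean of at least 10 tags left 37974 unpaired microglial and 40172 unpaired oligodendrocyte peaks, which turned the order of the totals.
Some genes had many unpaired peaks in both. Tns3, a focal adhesion protein, had 56 in each, Elmo1 73 and 53, Zmiz1 43 and 42, and Chd7, a chromatin remodeller, 53 and 39.

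**Figure D4:**
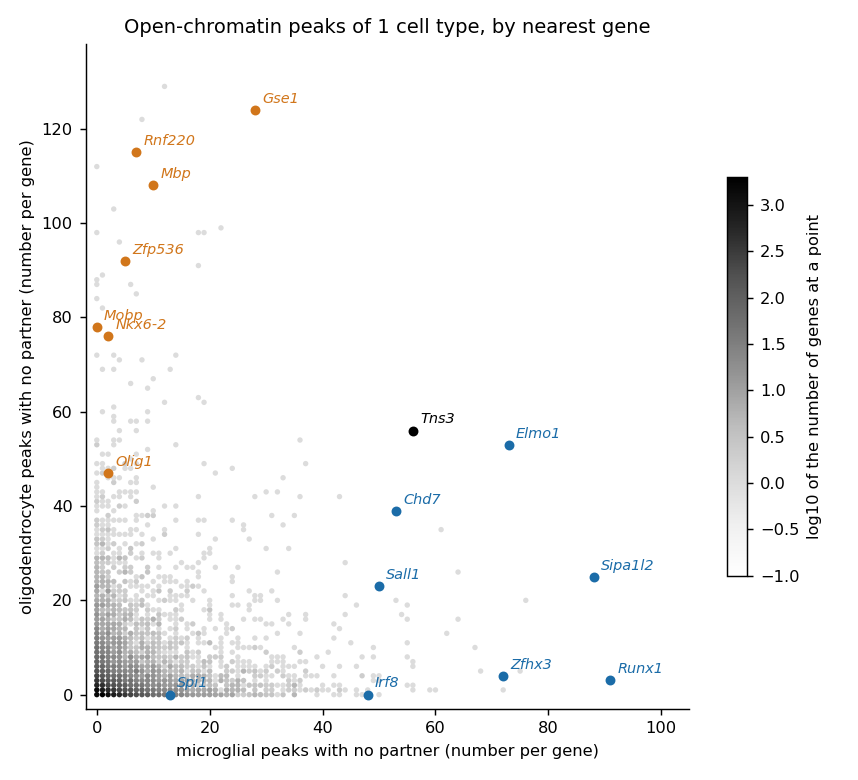
Number of microglial peaks without a partner against the number of oligodendrocyte peaks without a partner, per nearest gene; grey shade gives log10 of the number of genes at a point, and the colour of a name shows which count is larger. Runx1 (91 against 3) and A230009B12Rik (129 against 12, unlabelled) mark the ends, and Tns3 lies on the diagonal at 56.

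Other genes also held shared open sites that differed in both directions. Of 4057 genes with a pair at least 4-fold apart, 230 had such pairs in each direction. Cxxc5, a zinc finger protein of Wnt signalling, had 10 pairs at least 4-fold higher in microglia and 15 higher in oligodendrocytes. A Cxxc5 pair at -1205 bp from the start held 154, 164, 126 and 137 tags in microglia and 2.69, 19.9, 5.25 and 11.3 in oligodendrocytes. A pair 7433 bp downstream, in the first intron, held 13.1, 17.6, 20.1 and 28.3 in microglia and 148, 181, 218 and 243 in oligodendrocytes.
Neither pair had overlapping libraries. Zmynd8, a reader of acetylated histones, had 5 and 5, Midn 8 and 4, Prex1, an exchange factor for Rac, 6 and 4, and Zmiz1 4 and 6, and a sixth gene tied with the last of these. These are counts of pairs, which can overlap, and not of separate sites. The Midn pairs at chr10:80147752-80148552 and chr10:80148084-80148884 overlap and have the same oligodendrocyte values.

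A stretch of chromosome 16, picked after its values were seen, showed the change of side along neighbouring genes. All 5 tested pairs nearest to Olig2 and Olig1 were higher in oligodendrocytes, beside 32.6% of all pairs. Their log2 differences ran from -5.95 to -2.96, and oligodendrocytes had 66 peaks there against 7 in microglia. From Il10rb to Dnajc28, all 9 tested pairs were higher in microglia, by 0.62 to 6.204, beside 29.3% of all pairs. The peak counts were 72 in microglia and 15 in oligodendrocytes. This stretch holds receptor genes for interleukin 10 and interferons: the start of Il10rb held 204 ± 23.1 against 5.44 ± 5.53, that of Ifnar1 80.1 ± 11.9 against 53.9 ± 17.5 (SD, n = 4).
At Gart and Son, the next genes along, the 3 tested pairs differed by -0.32 to 0.11 and 1 was called, higher in oligodendrocytes.

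**Figure D5:**
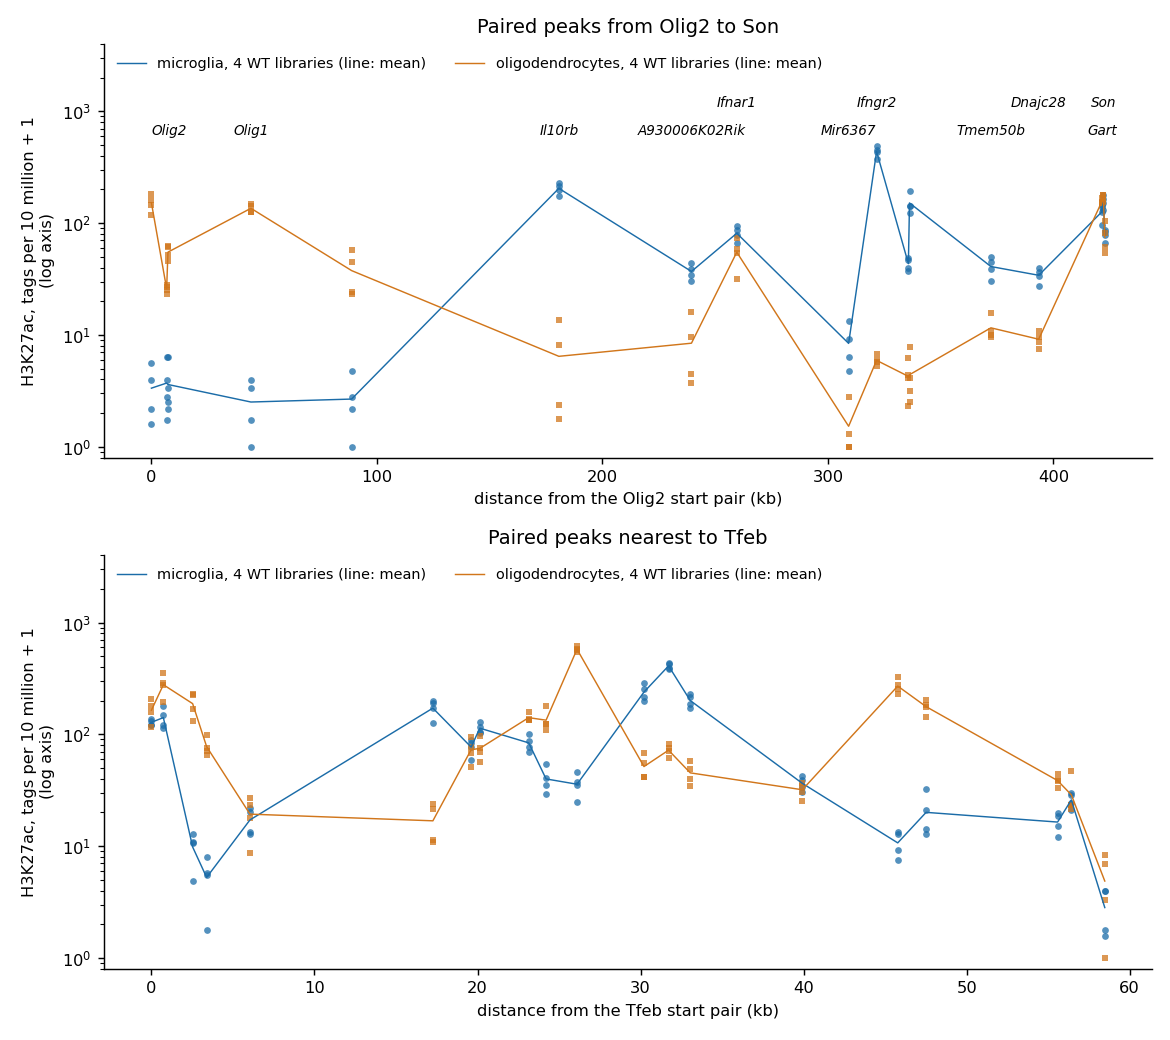
H3K27ac in the 4 WT libraries of microglia (circles) and of oligodendrocytes (squares) at each tested pair, in normalised tags plus 1 on a log axis, with lines joining the means, against distance in kb. In the upper panel the higher cell type changes from oligodendrocytes (Olig2, Olig1) to microglia (Il10rb to Dnajc28) and the levels meet at Gart and Son; in the lower panel it alternates along the 20 pairs nearest to Tfeb.

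Most differences were called at both ages. At 4 months 5610 pairs (23.6%) were higher in microglia and 6460 (27.1%) in oligodendrocytes, and at 8 months 5508 (23.1%) and 5859 (24.6%), with 2 libraries a group. In all, 9497 pairs were called in the same direction at both ages, which is 78.7% of the 4-month calls and 83.6% of the 8-month calls, and Pearson's r of the log2 differences across the 23796 pairs was 0.914, a description over pairs of the same peaks. The cell type by age interaction called 0 pairs with limma, with 1566 at an unadjusted p below 0.05; edgeR called 2 and DESeq2 18.
A single pair, the start of Tex10, a gene of ribosome assembly, was called in opposite directions. It held 6.93 and 9.39 tags in microglia and 21.97 and 22.03 in oligodendrocytes at 4 months, then 20.1 and 18.7 against 6.799 and 4.88 at 8 months, and its interaction did not pass (limma FDR 0.69).
The balance of calls depended on scaling, most at 4 months. With library totals alone, 60.7% of the calls (7597 of 12522) were higher in microglia, against 46.5% after TMM scaling, and the median over pairs of the change in log2 difference was 0.42. Over both ages the share was 47.4% with TMM, 53.4% with library totals and 53% with quantile normalization, with median changes of 0.17 and 0.20. At 8 months it was 48.5% with TMM, 45.3% with library totals and 52.1% with quantile normalization.

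The SgshKO libraries, which did not enter the WT fit, gave the same direction at most pairs. In SgshKO mice 7039 of 22821 pairs (30.8%) were higher in microglia and 7959 (34.9%) in oligodendrocytes. Of 6906 pairs higher in WT microglia and tested in both, 5819 were called higher in SgshKO microglia and 17 the other way; of 7574 higher in WT oligodendrocytes, 6637 were called the same way and 46 the other way.
The Olig2 start differed by -5.85 in SgshKO against -5.66 in WT, the Myrf start by -5.49 against -6.70 and the Sall1 start by 2.10 against 2.21. None of these 3 passed the test of a cell type by genotype interaction (limma FDR 0.88, 0.28 and 0.85). At the Mitf start the difference was 1.11 in SgshKO (limma FDR 5.8e-05) and 0.31 in WT, and the interaction did not pass (limma FDR 0.18). Over all pairs the interaction was called at 684 of 24272 (2.82%), a test chosen after seeing calls of opposite direction.
At their depth the inputs gave almost no calls for this contrast, though they leaned towards microglia. Of 18235 pairs tested in the input libraries, limma called 0, with 751 at an unadjusted p below 0.05, and edgeR and DESeq2 called 1 each. The median log2 difference over the input pairs was 0.46, against -0.07 over the pairs in the WT ChIP libraries. With 1 oligodendrocyte input at each age, the lack of calls says little about whether the inputs differ. The oligodendrocyte inputs, 1 at each age, carry both genotypes in their titles.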

How the data were processed

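The authors deposited, per the file headers, 1 table per cell type with a signal column per library, in tags scaled to 10000000 per library in 800 bp windows (200 bp for the factors) at that cell type's own ATAC-seq peaks, annotated by nearest gene start. The submitters' processing notes name mm10, Bowtie2, HOMER and DESeq2, without roles. Roles and versions are not given in the sources used here.

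Low values were whole multiples of 1 tag, or of 0.5 tag in the 8-month oligodendrocyte libraries, for 100% of values up to 200 steps in every ChIP library used (tolerance 0.005 plus 2% of a step), so tag counts were recovered. Totals of the microglial inputs were taken from that step, since their headers repeat the ChIP totals. Pairs with few tags were removed with filterByExpr of edgeR 4.0.16 (minimum count 10). Values were scaled with TMM over paired windows, and log2(value + 1) was tested in R 4.3.3 with limma 3.58.1 with a mean trend, two-sided, with 4 groups of cell type and age in 1 fit and Benjamini-Hochberg adjustment over all tested pairs at FDR 0.05. SgshKO and input libraries were fitted apart. On simulated data for 19017 pairs of this comparison, 84% of 2-fold and 100% of 4-fold changes were recovered, and 0.048% of unchanged pairs were called. The simulation gave all libraries the same spread, left out pairs with few tags and changed only 100 pairs by each fold. In the data, the chi-square per degree of freedom between replicates ran from 2.317 in 8-month microglia to 7.803 in 4-month oligodendrocytes. These rates therefore need not hold for the data.

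Pairs named are the start peaks of chosen genes (some are not reported here), the 8 of smallest p in each direction with libraries that do not overlap (at most 1 per gene), the 5 strongest alike starts, and the genes with most unpaired peaks (8 per cell type) or most pairs in both directions (5). Members, gene lists and tests were chosen with earlier results of these data known. In 344 pairs the oligodendrocyte peak served more than 1 microglial peak, and 32.2% of pairs overlapped another pair. Alternatives were other scalings, pseudocount 5, no filter, edgeR and DESeq2 1.42.0 on recovered counts, other pairing distances, a replicate block, leaving out each library and thinning to the smallest library total.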

Additional observations from a re-analysis of the deposited data

Results flagged for a closer look

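The difference between microglia and oligodendrocytes itself differed between WT and SgshKO mice at 684 of 24272 pairs in 1 limma fit over 16 libraries (FDR below 0.05; 3327 at an unadjusted p below 0.05). Of the 63 pairs called in opposite directions in the 2 genotypes, 61 were among them, an overlap nearly fixed in advance by the use of the same libraries. The 5 pairs below have the smallest p among these and were chosen after their values were seen; numbers are WT minus SgshKO of the log2 difference of microglia minus oligodendrocytes, and levels are mean ± SD of 4 libraries.

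At the start of Rftn1, a lipid raft protein, the value was -3.14 (SE 0.27, limma FDR 4.0e-08). Microglia held 14.8 ± 7.05 tags in WT and 112 ± 12.2 in SgshKO, and oligodendrocytes 70.1 ± 6.19 and 61.4 ± 6.201. At a pair near Cdk2ap1 it was 2.59 (SE 0.25, limma FDR 2.2e-07), with 120 ± 10.8 and 21.8 ± 9.47 in microglia and 80.1 ± 5.79 and 86.5 ± 7.32 in oligodendrocytes. At a pair near Arhgap23 it was -3.2 (SE 0.32, limma FDR 3.1e-07), with 13.8 ± 2.76 and 122 ± 15.2 in microglia and 32.1 ± 2.91 and 30.2 ± 9.12 in oligodendrocytes. At a pair near Rell1 it was -4.68 (SE 0.54, limma FDR 3.4e-06), with 6.00 ± 4.42 and 109 ± 11.0 in microglia and 36.6 ± 10.6 and 29.8 ± 8.12 in oligodendrocytes. At a pair near Eif1a it was -4.17 (SE 0.51, limma FDR 6.7e-06), with 2.25 ± 1.61 and 61.2 ± 12.1 in microglia and 27.4 ± 9.27 and 31.9 ± 7.18 in oligodendrocytes. At all 5 pairs the oligodendrocyte means of the genotypes lay within 10 tags of each other while the microglial means lay further apart. The levels of each genotype were scaled by TMM separately, unlike the fit over 16 libraries, so means compare only roughly between genotypes.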

How the results depend on the processing

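Depth, cell type and sort could not be separated by design. Thinning every library to the smallest total, an alternative chosen after seeing the data, left the counts within 1.5 times. It does not tell depth apart from cell type and sort. The counts of pairs higher in each cell type stayed within 1.5 times, though their order turned with library totals and quantile normalization over both ages, under the other scalings, pseudocount, filter, tools and pairing distances. Tested against a 2-fold difference, 7282 pairs were called over both ages (3168 higher in microglia, 4114 in oligodendrocytes), 6130 at 4 months (2613 and 3517) and 5587 at 8 months (2444 and 3143). With a pseudocount of 5, the pairs at least 4-fold higher in oligodendrocytes numbered 2613 in place of 3960, and 2741 in place of 4145 at 4 months. Leaving out 1 library gave 13003 to 14798 calls over both ages, 10538 to 11516 at 4 months and 8478 to 12291 at 8 months, and in SgshKO mice 13489 to 14617.

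The cell type by age interaction, 0 pairs in limma with TMM scaling, came to 27 with library totals, 1 with a pseudocount of 5, 2 with edgeR and 18 with DESeq2. Leaving out 1 library gave 0 to 35, with 35 without replicate 1 of oligodendrocytes at 4 months. For the inputs the count was 2 with library totals and 1 each with quantile normalization, a pseudocount of 5, edgeR and DESeq2, and 0 to 27 without 1 input. Unpaired microglial peaks fell from 65909 to 37974 when a mean of at least 10 tags was asked.

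With quantile normalization 4 start pairs that had not passed changed sign and passed: Pcbp1 (0.51), Flcn (0.56), 5031425E22Rik (0.39) and Atp6v0c (0.41). The cause was not tested. Deviations of same-numbered libraries correlated at 0.006 at 4 months and -0.017 at 8 months, so no shared deviation was seen. Whether same-numbered libraries share an origin cannot be told from these values. With a replicate block, 14589 pairs were called over both ages, 6947 higher in microglia and 7642 in oligodendrocytes.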
